A study of Saccharomyces cerevisiae with 6 samples.

Results

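The genes described here encode the first steps of the Ehrlich pathway in Saccharomyces cerevisiae: the transaminases ARO8, ARO9, BAT1 and BAT2, the decarboxylase ARO10 and the transcription activator ARO80. They were taken by name from the array's annotation, which gave 1 probe set to each, so that 6 probe sets of 5498 tested (6 genes of 5449) are the subject. All 6 arrays entered, and no member was lost to a filter on low values. Every strain was CEN.PK113-7D, a laboratory reference strain, grown in a chemostat at its critical dilution rate on minimal medium with glucose at 10 g/L as the only carbon source. The AOX strain carried the plasmid pYX212-AOX, the NOX strain pYX212-NOX and the control strain pYX212 without an insert, with 2 Affymetrix Yeast Genome 2.0 arrays per strain. AOX is known as an alternative oxidase of mitochondria and NOX as a water-forming NADH oxidase. pYX212 is known as a multicopy vector with a URA3 marker, in which the TPI1 promoter drives the insert. No numeric dilution rate is labelled, and whether it was the same in all strains is not given. A difference in growth rate between strains therefore cannot be told apart from a difference by plasmid. Nor is it labelled whether a strain's 2 arrays stem from different cultures, and the p-values therefore reflect only the variation among these arrays, part or all of which may be technical.

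Yeast uses the Ehrlich pathway to take nitrogen from aromatic, branched-chain and sulfur-containing amino acids. A transaminase moves the amino group to 2-oxoglutarate, a decarboxylase turns the remaining 2-keto acid into an aldehyde, and the aldehyde is either reduced to a fusel alcohol, which consumes NADH, or oxidised to a fusel acid. The transaminases come in pairs. ARO8 and BAT1 are known mainly for amino acid synthesis, with BAT1 in mitochondria. ARO9 and BAT2 are known mainly for breakdown, with BAT2 in the cytosol. ARO80 is a zinc-cluster protein that induces ARO9 and ARO10 when aromatic amino acids are present.

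ARO9 and BAT2, the breakdown transaminases, were lowest in AOX and highest in NOX, and the decarboxylase ARO10 was highest in NOX. ARO8 and BAT1 stood in the opposite order by much smaller margins. Between AOX and NOX, ARO9 was 2.89-fold lower in AOX and BAT2 1.79-fold lower, and both passed the test. ARO10 passed too, but 1 of its AOX arrays was under background and the call was lost in 5 of 13 alternative fits; with that array set at background it was 1.69-fold lower in AOX. ARO8 and BAT1 were 1.15-fold and 1.14-fold higher in AOX and did not pass. Against control only ARO9 in AOX passed, at 1.97-fold lower, and some fits with 1 array left out lost that call. BAT2 in AOX did not pass against control, and no member passed in NOX against control. The activator ARO80 differed by at most 1.09-fold in the 3 comparisons and passed in none. Values are given as deposited intensities per array and, for differences, on the scale of log2(intensity + 16) after quantile normalization between arrays, which understates changes of dim genes. Tests are limma's moderated test on all 5498 probe sets with Benjamini-Hochberg adjustment, and a change was called at an adjusted p below 0.05.

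**Figure D1:**
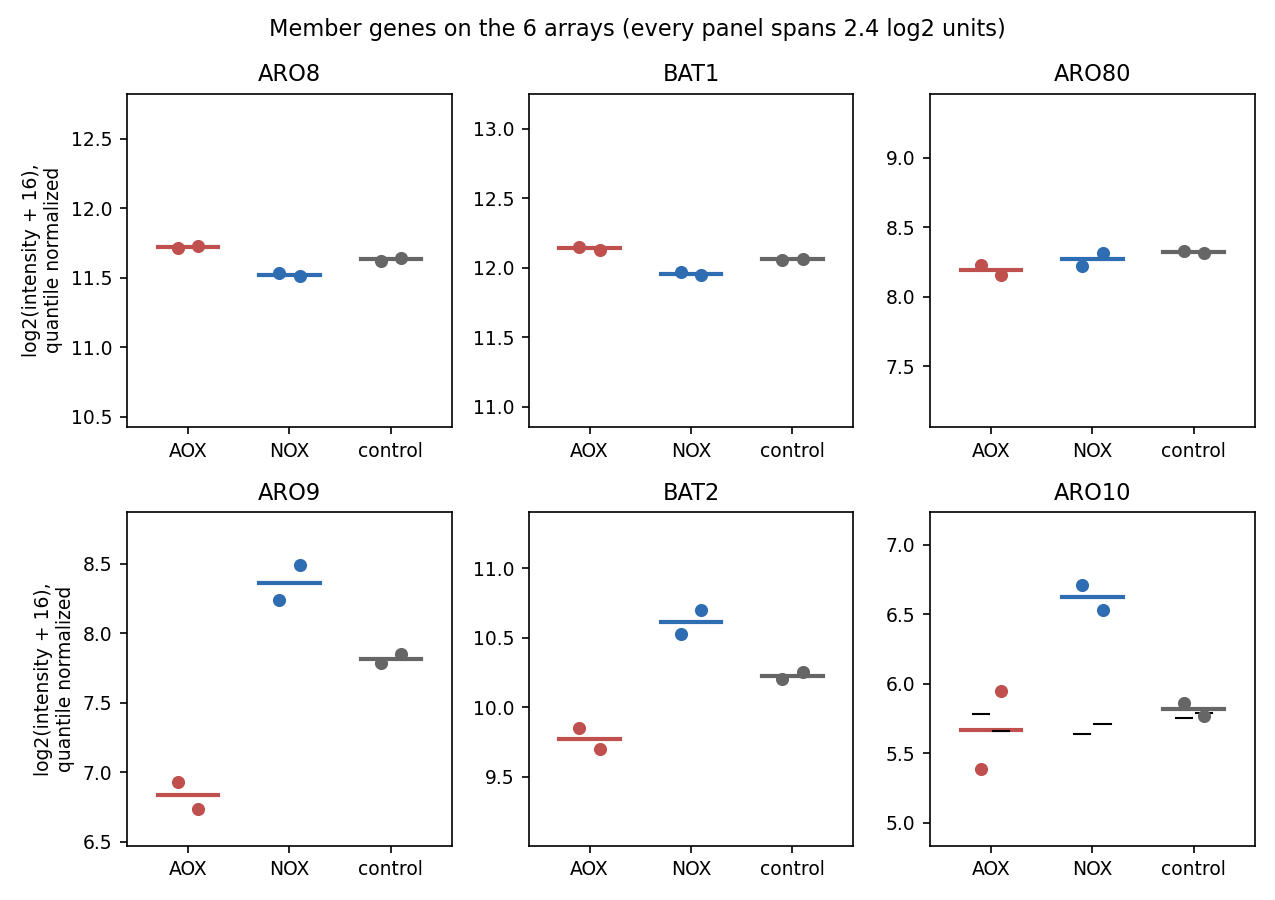
Normalized log2(intensity + 16) of the 6 genes on the 6 arrays, by strain. Points are arrays, coloured bars are strain means (n = 2), and the short black marks in the ARO10 panel are the background percentile of each array. ARO9 and BAT2 lie lowest in AOX and highest in NOX without overlap, and ARO10 is near background outside NOX.

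Over the tested probe sets the arrays were alike in brightness, with a median intensity of 511 to 543. Of these probe sets 94.7% to 96.9% were brighter than the background percentile. It was set at the 95th percentile of 1747 named probe sets without a matching S. cerevisiae gene. This percentile was less alike, from 27.4 on NOX replicate 1 to 43.9 on AOX replicate 1. This array type is known to carry probe sets for Schizosaccharomyces pombe too, so these 1747 are called the other yeast's probe sets below. Whether each of them is from that yeast was not checked. NOX replicate 1 stood apart in its hybridisation controls, at a mean log2 of 10.81 against 9.31 to 9.65, and in its ribosomal RNA probe sets, at 4.80 against 5.59 to 6.78. The SD of the difference between replicate arrays was 0.137 in AOX and 0.203 in NOX, against 0.0517 in control. The fit pools these spreads. The plasmid marker URA3 differed from control by a log2 value of -0.68 in AOX (SE 0.06, limma adjusted p = 0.00246) and -0.29 in NOX (SE 0.06, adjusted p = 0.0517), and between AOX and NOX by -0.39 (adjusted p = 0.0122). TPI1 stood 0.05 above control in AOX and 0.03 in NOX and did not pass. Whether plasmid level has a part in the results below was not tested. The transgenes themselves were not analysed here.

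Of the breakdown transaminases, ARO9 (YHR137W), which acts on aromatic amino acids, had the widest range, 1.75 log2 units over the 6 arrays. Its intensity was 110 and 92.4 on the AOX arrays, 276 and 352 on the NOX arrays, and 203 and 214 on the control arrays. All 6 values were above the background percentile, which lay between 27.4 and 43.9, and the strains did not overlap. The mean log2 value was 6.84 ± 0.14 in AOX and 8.37 ± 0.18 in NOX, against 7.82 ± 0.05 in control (SD, n = 2 each), so the replicates lay closest together in control.

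Set against NOX, ARO9 in AOX differed by -1.53 on the log2 scale (SE 0.11, 95% confidence interval -1.79 to -1.27, limma adjusted p = 0.000841). Only 0.418% of the probe sets differed by more in either direction. Against control it was lower in AOX by -0.98 (SE 0.11, interval -1.24 to -0.72, adjusted p = 0.00632). Leaving out any of 3 arrays ended that call: the adjusted p was 0.0574 and 0.0753 without control replicates 1 and 2, and 0.0653 without AOX replicate 2. The change itself was then -1.02, -0.95 and -0.88. In NOX it stood 0.55 above control (SE 0.11, interval 0.29 to 0.81), with an adjusted p of 0.0542 that missed the threshold. Without control replicate 1 or 2 the adjusted p was 0.366 or 0.316, and with the replicate number as a block 0.145. It was under 0.05 in 7 of 13 alternative fits. In 2 of these, without NOX replicate 1 (0.67, adjusted p = 0.0338) or 2 (0.42, adjusted p = 0.0369), the spread came from AOX and control only and the lone NOX array was assumed to vary as they did, although NOX replicates differed most.

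BAT2 (YJR148W), the cytosolic branched-chain transaminase, followed the same order on brighter probes. Its intensity was 911 and 816 on the AOX arrays, 1399 and 1659 on the NOX arrays, and 1168 and 1207 on the control arrays. Again no array of a strain crossed into another strain's range. The difference between AOX and NOX was -0.84 (SE 0.08, interval -1.04 to -0.63, limma adjusted p = 0.00331), and 1.64% of the probe sets differed by more in either direction. This call and that of ARO9 between AOX and NOX held in all 13 alternative fits, among them those with single arrays left out.

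Against control, BAT2 was lower in AOX by -0.45 (SE 0.08, interval -0.66 to -0.25), with an adjusted p of 0.0504 just over the threshold. It was under 0.05 in 6 of 13 alternative fits, but 0.313 and 0.440 without control replicates 1 and 2, 0.121 and 0.311 without AOX replicates 1 and 2, and 0.148 with the replicate block. In NOX it stood 0.39 above control (SE 0.08, interval 0.18 to 0.59, adjusted p = 0.0728). That p was under 0.05 in 3 of 13 fits, 2 of which left a lone NOX array with its spread taken from the other strains (0.046 and 0.0491). It was 0.468 and 0.423 without control replicates 1 and 2.

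ARO10 (YDR380W), the decarboxylase that turns the 2-keto acids of several amino acids into fusel aldehydes, was the dimmest member. Its intensity was 29.5 and 41.9 on the AOX arrays, 81.9 and 78.9 on the NOX arrays, and 44.6 and 42.8 on the control arrays. Only the NOX arrays were both above the background percentile. In AOX replicate 1 was under it, and in control replicate 2 was.

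The fitted difference between AOX and NOX was -0.95 (SE 0.18, interval -1.40 to -0.50, adjusted p = 0.0331). The fitted fold of 1.94 takes the AOX array under background at its measured value. This call was less stable than the other 2. The adjusted p was 0.0606 without AOX replicate 1, where the difference was -0.67, and 0.0918 without NOX replicate 1. It was 0.0815 without either control array, 0.0834 with the replicate number as a block and 0.0523 with a pseudocount of 1.

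Between NOX and control, ARO10 stood 0.81 higher (SE 0.18, interval 0.36 to 1.26, adjusted p = 0.0804), and 1.74-fold higher with the dim control array at its percentile. It was the member farthest from control in NOX by fitted difference, and 0.818% of the probe sets differed by more. Its adjusted p was 0.0308 with the AOX arrays left out of the fit, and under 0.05 in 4 of 13 alternative fits. It was 0.366 and 0.485 without control replicates 1 and 2, 0.151 without NOX replicate 1 and 0.178 with the replicate block. Between AOX and control its arrays overlapped, with a difference of -0.15 (interval -0.60 to 0.30, adjusted p = 0.796). Without AOX replicate 1 that difference was 0.13, so no direction is given.

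**Figure D2:**
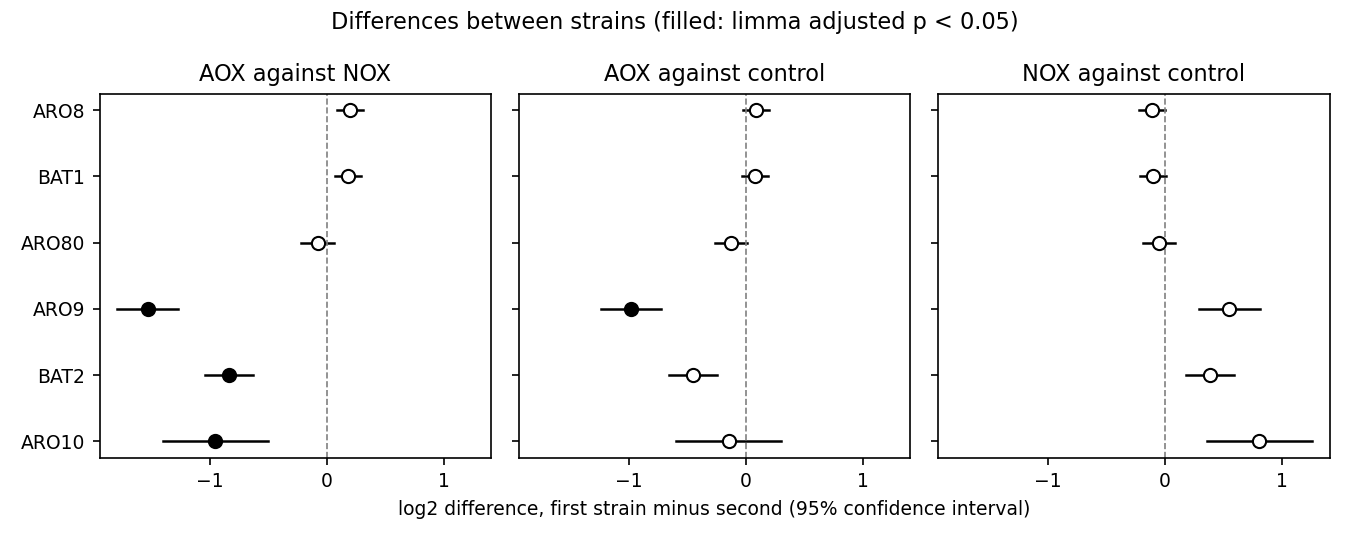
Log2 differences of the 6 genes between strains, each the first-named strain minus the second, with 95% confidence intervals from limma (n = 2 arrays per strain). Filled points had an adjusted p below 0.05: ARO9, BAT2 and ARO10 between AOX and NOX, and ARO9 between AOX and control.

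The synthesis transaminases stood in the other order and close together. ARO8 (YGL202W), which serves aromatic amino acid synthesis, had intensities of 3486 and 3346 on the AOX arrays, 2761 and 2946 on the NOX arrays, and 3126 and 3170 on the control arrays. BAT1 (YHR208W), the mitochondrial branched-chain transaminase, had 4624 and 4479 on the AOX arrays, 3826 and 4013 on the NOX arrays, and 4260 and 4305 on the control arrays. For both genes every AOX array was above every control array and every control array above every NOX array.

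The log2 difference of AOX from NOX was 0.20 for ARO8 (SE 0.05, interval 0.09 to 0.31, adjusted p = 0.0554) and 0.18 for BAT1 (SE 0.05, interval 0.07 to 0.30, adjusted p = 0.071). ARO8 passed in 6 of 13 alternative fits and BAT1 in 2. Against control, ARO8 stood at 0.09 in AOX and -0.11 in NOX, and BAT1 at 0.08 and -0.10. The limma adjusted p of these 4 values lay between 0.22 and 0.531. The sign of these and of the 2 differences between AOX and NOX held in all 13 alternative fits, among them 3 other scalings between arrays. Their size depended on the scaling. With scaling on the other yeast's probe sets ARO8 and BAT1 stood at -0.04 and -0.02 in NOX against control, and at 0.15 and 0.12 in AOX. The differences between AOX and NOX were not unusual in size: 19.3% of the probe sets differed by more than ARO8 and 22.1% by more than BAT1.

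ARO80 (YDR421W), the activator, had intensities of 284 and 271 on the AOX arrays, 272 and 311 on the NOX arrays, and 306 and 305 on the control arrays. Both AOX arrays were below both control arrays, and the NOX arrays overlapped both strains. The difference was -0.08 between AOX and NOX (interval -0.22 to 0.06, adjusted p = 0.473) and -0.13 between AOX and control (interval -0.27 to 0.01, adjusted p = 0.4). Between NOX and control it was -0.05 (interval -0.19 to 0.09, adjusted p = 0.619), and 0.0335 with scaling on the probe sets of the other yeast. The farthest bound of these intervals was -0.27. Only the transcript of ARO80 was measured, not its activity.

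By count, 3 of 6 members were lower in AOX than in NOX, where 4.38% of all probe sets were, and none was higher, where 4% were. Between AOX and control, 1 of 6 was lower, against 1.04% of all probe sets, and none higher, against 2.55%. Between NOX and control limma called none of the 6, where 2.8% of all probe sets were called higher and 0.909% lower. At an unadjusted p below 0.05, 4 of the 6 passed in that comparison (ARO9, BAT2 and ARO10 above control, ARO8 below), against 22.3% of all probe sets. The median log2 difference of the 6 was -0.46 between AOX and NOX, -0.14 between AOX and control and 0.17 between NOX and control, where all probe sets had medians of 0.01, -0.002 and -0.004. The same count at an unadjusted p was 5 of 6 between AOX and NOX, against 22.8%, and 2 of 6 between AOX and control, against 13.7%. The comparisons with control share their control arrays. The 6 genes were chosen with earlier results of these data known, so the shares beside their counts are no independent test.

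**Figure D3:**
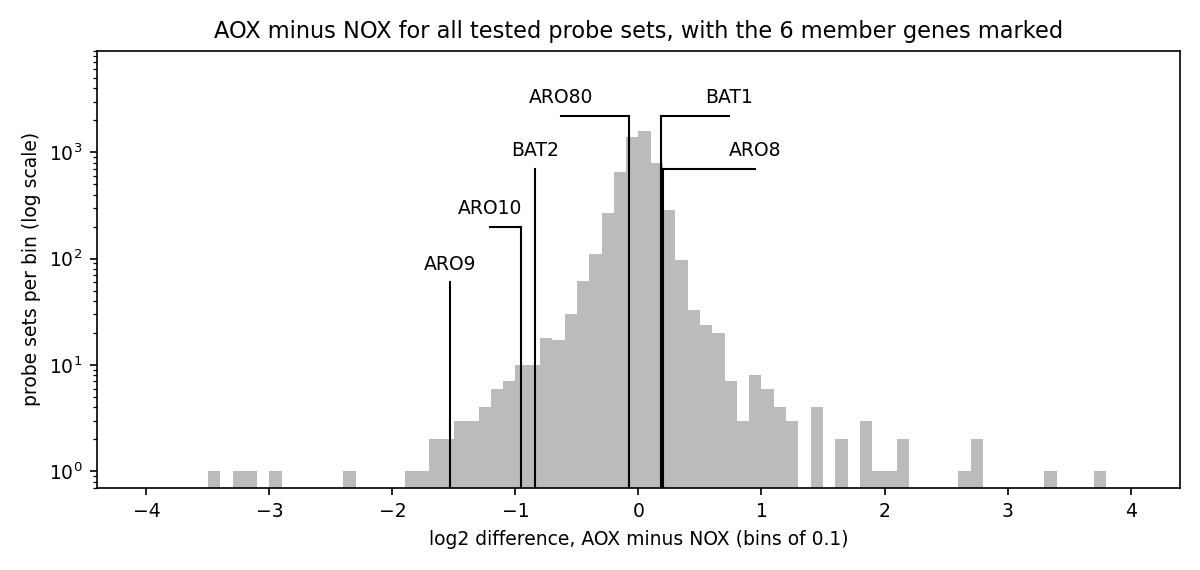
Distribution of the AOX minus NOX log2 difference over the 5498 tested probe sets in bins of 0.1, with a log vertical axis and the 6 genes marked. ARO9, ARO10 and BAT2 lie in the thin lower tail, and ARO80, BAT1 and ARO8 in the body of the distribution.

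The order of the strains was also compared without a threshold. ARO9 and BAT2 were the members whose NOX arrays all exceeded the control arrays and whose control arrays all exceeded the AOX arrays, an order found in 5.15% of the probe sets. ARO8 and BAT1 had the reverse order, found in 5.62%. Within each array, the difference between ARO9 and ARO8 was taken relative to its control mean. It was -0.97 and -1.17 on the AOX arrays and 0.53 and 0.80 on the NOX arrays, so the shift between AOX and NOX was -1.73. For BAT2 against BAT1 it was -0.47 and -0.60 on the AOX arrays and 0.39 and 0.59 on the NOX arrays, a shift of -1.02. These shifts are a description: an exact two-sided permutation test of 2 against 2 arrays cannot go below p = 0.333. They do not say which transcript was more abundant.

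Likeness of pattern was measured as the root-mean-square distance between log2 values over the 6 arrays, each gene centred on its own mean. BAT1 was the probe set nearest to ARO8 among all 5497 others, at 0.0119. BAT2 lay at 0.30 from ARO9, with 19 probe sets closer. BAT2 lay at 0.29 from ARO10, with 2.29% of probe sets closer, whereas ARO9 lay at 0.43 from ARO10 with 32% closer. The values were not scaled, so the distance also grows with a difference in the size of change. ARO80, with a range of only 0.17, lay at 0.46 from ARO10. These ranks were computed after the values were seen and carry no test.

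For the 3 members that ranged over at least 0.5 log2 units, the nearest other genes were taken by the same distance. Genes picked this way have similar differences between strains by construction. Nearest to ARO9 were ATO2, of the acetate and ammonium transporter family, at 0.09, the glutamate dehydrogenase gene GDH3 at 0.11 and PRM5 at 0.14. In AOX against NOX they differed by -1.47, -1.32 and -1.63, next to -1.53 for ARO9. Nearest to BAT2 were the uncharacterised YMR206W at 0.02, SPS19, a peroxisomal enzyme of fatty acid breakdown, at 0.08, and the lactate transporter gene JEN1 at 0.09. They differed by -0.81, -0.82 and -0.76, next to -0.84 for BAT2. Nearest to ARO10 were AAD3, of the aryl-alcohol dehydrogenase family, at 0.06, DDI3 at 0.15 and PDR18, an ABC transporter gene, at 0.15. They are dim: AAD3 was above background on 2 of the 6 arrays, DDI3 on 5 and PDR18 on 0. The AAD3 and DDI3 probe sets may also bind close relatives, so their values are uncertain.

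The rest of the pathway was read from lists by role, with 73 of 74 listed non-member genes measured. The lists also hold genes outside the pathway, such as those for amino acid synthesis, permeases, nitrogen regulators and other transaminases. They were chosen with earlier results of these data known, so the counts beside all probe sets are a description and no independent test. Between AOX and NOX, 3 of these 73 were higher in AOX, 8 were lower and 62 did not pass, with a median of 0.01, where 4% of all probe sets were higher and 4.38% lower. Between AOX and control, 3 were higher, 4 lower and 66 did not pass, where 2.55% of all were higher and 1.04% lower. Between NOX and control, 8 were higher, 2 lower and 63 did not pass, where 2.8% of all were higher and 0.909% lower.

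**Figure D4:**
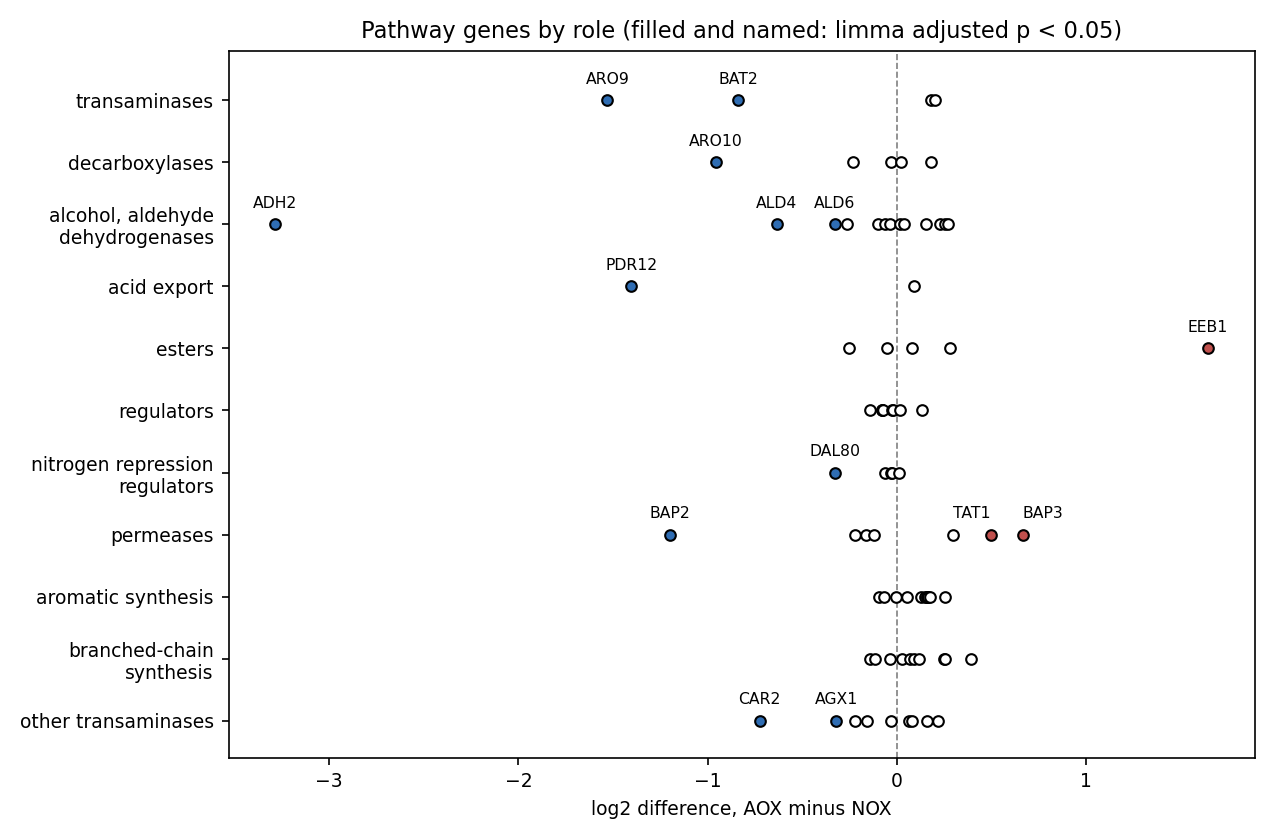
AOX minus NOX log2 difference of each measured gene of the lists, 1 point per gene, in rows by role. Filled and named points had a limma adjusted p below 0.05, with blue for lower and red for higher in AOX. No called gene lies in the rows for amino acid synthesis or for the ARO80 group of regulators.

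Among the 5 decarboxylases only ARO10 was called, between AOX and NOX. The pyruvate decarboxylase genes PDC1, PDC5 and PDC6, whose enzymes can also act on 2-keto acids, differed by -0.03, 0.18 and -0.23 there (limma adjusted p = 0.749, 0.0873 and 0.0756). THI3, a decarboxylase-like regulator of thiamine genes, differed by 0.02. Against control none of these 4 passed: they lay between -0.02 and 0.04 in AOX and between -0.14 and 0.27 in NOX, where PDC6 was highest.

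At the end of the pathway, 13 alcohol and aldehyde dehydrogenase genes were measured. Between AOX and NOX none was higher in AOX and 3 were lower: ADH2, which oxidises ethanol (-3.29), the mitochondrial aldehyde dehydrogenase gene ALD4 (-0.63) and the cytosolic ALD6 (-0.33). The same 3 genes and ALD3 rose in NOX over control, ADH2 by 1.98, ALD4 by 0.40, ALD3 by 0.36 and ALD6 by 0.30. In AOX, ADH2 fell against control (-1.31) and ALD3 rose (0.52). The list median was -0.03 between AOX and NOX, near that of all probe sets.

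PDR12, the plasma membrane pump that exports fusel and other weak acids, had the order of ARO9 and BAT2. Its intensity was 1924 and 2072 on the AOX arrays, 5476 and 4978 on the NOX arrays, and 3371 and 3354 on the control arrays. The strains did not overlap, and all 3 differences were called. They were -1.40 between AOX and NOX (SE 0.08, limma adjusted p = 0.000454), -0.75 between AOX and control (adjusted p = 0.00676) and 0.65 between NOX and control (adjusted p = 0.0149). WAR1, its activator, differed by 0.09 between AOX and NOX and did not pass.

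The ester gene EEB1, which encodes an enzyme that forms ethyl esters of fatty acids, had the opposite order. Its intensity was 781 and 840 on the AOX arrays, 231 and 259 on the NOX arrays, and 388 and 402 on the control arrays. It was higher in AOX than in NOX by 1.65 (SE 0.06, limma adjusted p = 9.27e-05) and than in control by 1.01, and lower in NOX than in control by -0.64. The other 4 ester genes, ATF1, ATF2, IAH1 and EHT1, did not pass in any comparison and lay between -0.25 and 0.28 between AOX and NOX.

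Of 7 permeases for aromatic and branched-chain amino acids, 2 were higher and 1 lower in AOX than in NOX. BAP2, a branched-chain amino acid permease, had intensities of 456 and 470 on the AOX arrays, 1067 and 1105 on the NOX arrays, and 505 and 529 on the control arrays. Its difference was -1.20 between AOX and NOX (SE 0.05, limma adjusted p = 0.000149), and it rose by 1.05 in NOX over control. TAT1, a tyrosine permease, was lower than in control in both strains, by -0.33 in AOX and -0.83 in NOX, and so was 0.50 higher in AOX than in NOX. BAP3 was under the background percentile on every NOX and control array and was at least 1.44-fold higher in AOX than in NOX and at least 1.34-fold higher than in control (limma adjusted p = 0.00506 and 0.00251). GNP1, a glutamine permease, rose by 0.34 in NOX over control. The general permease gene GAP1 differed by -0.12 between AOX and NOX and did not pass.

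None of the 8 regulators of aromatic and branched-chain amino acid use passed in any comparison. Besides ARO80 these were STP1, STP2, SSY1, PTR3 and SSY5 of the amino acid sensor pathway, LEU3, the activator of branched-chain synthesis, and GCN4, the activator of amino acid synthesis. They lay between -0.14 and 0.13 between AOX and NOX, and between -0.13 and 0.05 in AOX against control. At an unadjusted p below 0.05, STP1 (-0.18) and STP2 (0.19) passed in NOX against control and none in the other comparisons. Of the 5 regulators of nitrogen catabolite repression, DAL80, a repressor, differed by -0.32 between AOX and NOX and rose by 0.52 in NOX over control, and GLN3, GAT1, GZF3 and URE2 did not pass.

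Aromatic synthesis genes lay between -0.09 and 0.25 between AOX and NOX, and branched-chain synthesis genes between -0.14 and 0.39. In NOX against control the ranges were -0.35 to 0.03 and -0.20 to 0.08. By limma none of 11 measured aromatic synthesis genes and none of 10 branched-chain synthesis genes was called in any comparison. Their medians between AOX and NOX were 0.15 and 0.08, next to 0.01 for all probe sets. At an unadjusted p below 0.05, 3 of the 11 and 3 of the 10 passed between AOX and NOX, near the 22.8% of all probe sets that did. By the same rule 1 of each list passed between AOX and control, against 13.7% of all, and 2 of each between NOX and control, against 22.3%. Of 9 other transaminases, CAR2, an ornithine transaminase of arginine breakdown, and AGX1 were lower in AOX than in NOX (-0.72 and -0.32), and ALT2 was lower in AOX than in control (-0.28).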

How the data were processed

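RNA of 3 yeast strains was measured on 6 Affymetrix arrays, 2 per strain. The authors deposited 1 intensity per probe set on a linear scale; how the probes were summarised and scaled is, in the sources used here, not given. Log2(intensity + 16) was taken, and since the array medians differed by 0.20, more than the limit of 0.1, all 10928 probe sets were quantile normalized. Probe sets were matched by Entrez identifier to the S. cerevisiae R64 gene table: 5498 matched 1 gene and were tested, and 1747 named probe sets matched none and served as background. limma 3.58.1 in R 4.3.3 fitted 1 mean for each strain to the 6 arrays together (3 residual and 2.775 prior degrees of freedom), with Benjamini-Hochberg adjustment over 5498 probe sets. The fit was also run on simulated data, checked for AOX against control only. Those data had independent arrays and the same spread in every strain, so they cannot show how the fit behaves with unequal spreads or linked arrays. The number of arrays limits the precision.

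The genes and lists were chosen with earlier results of these data known. Named besides the 6 genes are, per list and comparison, up to 4 called genes with the smallest adjusted p, all decarboxylases and amino acid regulators, URA3 and TPI1, and for each gene ranging over at least 0.5 log2 units the 3 nearest genes. TRP1 was the 1 listed gene with no matched probe set. WAR1, GAP1 and the uncalled ester and nitrogen regulator genes were named after their values were seen. Alternatives covered the scaling, pseudocounts of 1 and 64, dim probe sets, limma's variance trend, the arrays in the fit, a replicate block, a threshold of 0.01 and each array left out. Promoter motifs and protein identities were planned, and those sequences are not analysed here.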

Additional observations from a re-analysis of the deposited data

Results flagged for a closer look

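The differences of AOX and NOX from the same control were compared by the contrast between both strains, in which the control cancels. By limma with Benjamini-Hochberg adjustment 3 of the 6 Ehrlich pathway genes differed, all lower in AOX. Of all probe sets 4.38% were called lower there and 4% higher, but the 6 genes were chosen with earlier results of these data known. The AOX minus NOX log2 values were -1.53 for ARO9, -0.84 for BAT2 and -0.95 for ARO10, which had 1 AOX array under background. For ARO9 and BAT2 both AOX arrays were below control and both NOX arrays above it. Among the other listed genes, not all of which belong to the pathway, the difference was -1.40 for PDR12, -3.29 for ADH2, -0.63 for ALD4, -0.33 for ALD6, -1.20 for BAP2, -0.32 for DAL80, -0.72 for CAR2 and -0.32 for AGX1. It was 1.65 for EEB1 and 0.50 for TAT1. For BAP3 the fitted value was 0.67, but its NOX and control arrays were all under the background percentile, so that only a bound holds, at least 1.44-fold higher in AOX than in NOX. With 2 arrays per strain no single array could be tested as an outlier.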

How the results depend on the processing

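Leaving out 1 array of the strain outside a comparison gives the same fit as using only the arrays compared, so 13 alternative fits were distinct in each comparison. Of the 234 differences of the 6 genes in them, 196 kept their sign and side of the threshold, 8 lost a call, 28 gained one and 2 turned sign. ARO10 in AOX against control ranged from -0.43 to 0.13 with single arrays left out (0.13 without AOX replicate 1), and ARO80 in NOX against control was 0.0335 with scaling on the other yeast's probe sets. The calls of ARO9 and BAT2 between AOX and NOX held throughout, with adjusted p from 6.75e-08 to 0.0135 for ARO9 and from 1.44e-05 to 0.0346 for BAT2, and that of ARO10 was lost in 5 of 13. A strain left with 1 array takes its spread from the other strains.

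In NOX against control 0 of the 6 genes were called, 1 without quantile normalization (ARO10), 2 with array medians set equal over S. cerevisiae probe sets, 3 with those of the other yeast set equal, 1 with a pseudocount of 64, 1 without dim probe sets, 1 with the variance trend, 1 with only the arrays compared, and 0 to 2 with single arrays left out. In AOX against control 1 was called, ARO9, and 2, with BAT2, under both median scalings, a pseudocount of 64, no dim probe sets, the variance trend and only the arrays compared, and 0 to 2 with single arrays left out. Between AOX and NOX 3 were called. ARO10 dropped out with a pseudocount of 1, with only the arrays compared and at a threshold of 0.01, which left 2. ARO8 was added under S. cerevisiae median scaling, a pseudocount of 64 and no dim probe sets, which gave 4. With the variance trend 5 were called. The ARO10 difference was -0.67 without AOX replicate 1 and -1.23 without AOX replicate 2.

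Over all probe sets, 204 were called in NOX against control, 111 with only the arrays compared, 76 at a threshold of 0.01, and 14 to 1453 with single arrays left out (14 without control replicate 2, 1453 without NOX replicate 2). In AOX against control 197 were called, 364 with only the arrays compared, 115 at 0.01, and 52 to 364 with single arrays left out. Between AOX and NOX 461 were called, 202 with only the arrays compared, 195 at 0.01, and 158 to 1467 with single arrays left out. With scaling on the other yeast's probe sets the split of higher and lower was 245 and 32 in NOX against control, where it was 154 and 50, and 127 and 227 between AOX and NOX, where it was 220 and 241. That scaling moved the median of all probe sets by at most 0.08. The cause of these differences was not tested.

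NOX and AOX arrays of the same replicate number did not vary alike. Replicate differences correlated across probe sets at -0.60 between NOX and AOX, 0.12 between NOX and control and -0.21 between AOX and control. At -0.60, NOX and AOX arrays of opposite number shared variation, whereas the main fit takes all arrays as independent. The cause of this was not tested. With the replicate number as a block, 0, 1 and 2 of the 6 genes and 79, 124 and 237 probe sets were called in NOX against control, AOX against control and AOX against NOX. With the AOX numbers crossed, chosen after seeing the data, 3 genes and 562 probe sets were called between AOX and NOX. The signal over background limits ARO10, which was above background on both arrays in NOX alone.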
